A study of Mus musculus with 12 samples.

Results

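Wide peaks are the peaks of at least 2000 bases, from start to end, in 6 lists of 5-methylcytosine (m5C) enrichment in RNA of the mouse hippocampus. The members were chosen by their width alone, so their width above that limit is a description and not a finding. There were 3302 wide peaks among 72319 peaks in all lists (4.57%). Where wide peaks of different lists overlapped on the same strand they were joined, which gave 1268 wide regions. The hippocampi came from female wild-type (WT) C57BL/6 mice of 3 months (young, 3 lists) and 18 months (aged, 3 lists). No treatment or transgene is named for either age. Each list belonged to 1 immunoprecipitated (IP) library and its own input library, which makes 12 libraries. Nothing in the labels ties a sample to an animal of its own, so each p-value measures the spread among these samples only, and that spread may be technical. The deposited lists hold no read counts, so the depth behind each peak is unknown.

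In RNA, m5C is a methyl group on carbon 5 of cytosine. Enzymes of the NSUN family and TRDMT1 place it, TET dioxygenases can oxidise it, and proteins such as ALYREF and YBX1 bind it. In an antibody pull-down, RNA is broken into fragments, fragments with the mark are enriched, and a peak is a stretch where IP reads exceed input reads. A wide peak thus covers a long stretch of one transcript, but it does not tell how many cytosines in it are modified or which ones. The amount of a transcript and the number of cells that make it also bear on a peak, and in bulk tissue fewer cells of a type and less RNA per cell cannot be told apart.

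At most genes, wide peaks lay far from the start, but 38 genes had their RefSeq start under a wide peak. In 32 of the 38 the upstream edge of a wide peak was exactly at that start. In 4 genes the start was covered in all 6 lists, and their promoter windows are shown because they are the starts that recurred most. A start here is the RefSeq start that the gene's promoter window is built on. It need not be the first base of the annotated span, and whether transcription begins there was not tested. Each window runs from 250 bases before the start to 50 after it, so its last 50 bases lay under the peak. Sequences are from RefSeq on GRCm38.p6, the mm10 assembly, are written 5′ to 3′, and have CG dinucleotides in capitals.
Pnmal2, a gene related to retroviral gag genes, chr7:16944432-16944731, plus strand: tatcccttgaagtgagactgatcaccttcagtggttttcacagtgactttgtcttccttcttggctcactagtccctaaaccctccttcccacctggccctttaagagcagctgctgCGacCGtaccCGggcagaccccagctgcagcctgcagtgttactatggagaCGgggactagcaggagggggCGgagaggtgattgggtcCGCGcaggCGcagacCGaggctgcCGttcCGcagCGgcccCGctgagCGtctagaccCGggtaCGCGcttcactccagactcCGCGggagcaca
Arhgap5, a GTPase-activating protein, chr12:52515827-52516126, plus strand: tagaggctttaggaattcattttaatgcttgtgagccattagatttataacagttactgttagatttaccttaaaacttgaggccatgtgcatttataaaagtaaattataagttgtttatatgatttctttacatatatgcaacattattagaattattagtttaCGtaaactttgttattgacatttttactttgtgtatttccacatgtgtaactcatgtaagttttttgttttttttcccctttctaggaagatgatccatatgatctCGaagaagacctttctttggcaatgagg
Nap1l3, a nucleosome assembly protein family member, chrX:122397336-122397635, minus strand: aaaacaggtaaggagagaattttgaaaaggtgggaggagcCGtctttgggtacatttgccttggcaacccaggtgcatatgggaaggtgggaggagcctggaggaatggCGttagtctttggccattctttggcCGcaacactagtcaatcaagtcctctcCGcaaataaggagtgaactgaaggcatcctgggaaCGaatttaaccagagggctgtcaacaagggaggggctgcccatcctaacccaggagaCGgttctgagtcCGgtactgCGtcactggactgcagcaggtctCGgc
Cpeb4, a protein that controls translation through the poly(A) tail, chr11:31870690-31870989, plus strand: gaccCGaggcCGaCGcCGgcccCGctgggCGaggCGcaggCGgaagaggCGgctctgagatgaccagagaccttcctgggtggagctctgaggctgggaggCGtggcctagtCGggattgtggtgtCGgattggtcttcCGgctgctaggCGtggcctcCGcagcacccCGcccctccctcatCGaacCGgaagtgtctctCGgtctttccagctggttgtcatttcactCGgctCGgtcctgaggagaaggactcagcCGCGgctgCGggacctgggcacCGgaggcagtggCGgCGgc

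The windows differed in base composition. That of Cpeb4 held 27 CG dinucleotides and that of Pnmal2 held 19, whereas Nap1l3 had 9 and Arhgap5 had 2. Over the 38 windows the median was 15.5 CG dinucleotides, against 13 over all 21262 protein-coding windows of the same length. The motif GGGCGG, searched on both strands, was in 57.9% of the 38 and 46.2% of all windows, CCAAT in 44.7% and 38.2%, and TATAAA in 5.26% and 12.6%. These shares describe the letters of the windows and were not tested.

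Wide regions also spanned 4 annotated microRNA hairpins, of which 2 recurred in 3 or more lists. The hairpin of Mir3071 lay inside the region of Rtl1, an imprinted gene derived from a retrotransposon, which had a wide peak in 5 lists, and that of Mir568 lay in a region with no protein-coding host that had a wide peak in 3 lists. Their mature sequences are shown with the seed, bases 2 to 8, in capitals, from RefSeq on GRCm38.p6. No pair of them shares a seed.
mmu-miR-3071-5p, chr12:109595363-109595384: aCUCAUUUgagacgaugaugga
mmu-miR-3071-3p, chr12:109595329-109595350: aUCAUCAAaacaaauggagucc
mmu-miR-568, chr16:43640665-43640684: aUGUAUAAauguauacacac

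Every aged list held more wide peaks than every young list, but the shares that wide peaks took of their lists overlapped. The young lists had 512, 315 and 504 wide peaks and the aged lists 676, 573 and 722. The groups did not overlap, and young replicate 2 stood lowest. The means were 657 ± 76.3 (SD, n = 3) in aged and 444 ± 112 (SD, n = 3) in young lists, a difference of 213 (two-sided exact permutation test, p = 0.1, the smallest that 3 against 3 allows). Without young replicate 2 the difference was 149 (exact permutation p = 0.2). With lists cut to an equal length, the best 8549 peaks by score, it was 91 (504 ± 60.7 against 413 ± 84.9, n = 3 each, exact permutation p = 0.3). As deposited, the lists were longer at 18 months, with 15189, 14008 and 14294 peaks against 9887, 8549 and 10392. As shares of their own lists, wide peaks made up 5.18%, 3.68% and 4.85% in young and 4.45%, 4.09% and 5.05% in aged libraries. These shares overlapped, and their means were 4.57% ± 0.785 and 4.53% ± 0.485 (n = 3 each, exact permutation p = 1). The sign of this small difference turned at equal list length, where the aged mean was 1.06 percentage points above the young one (exact permutation p = 0.3).

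**Figure D1:**
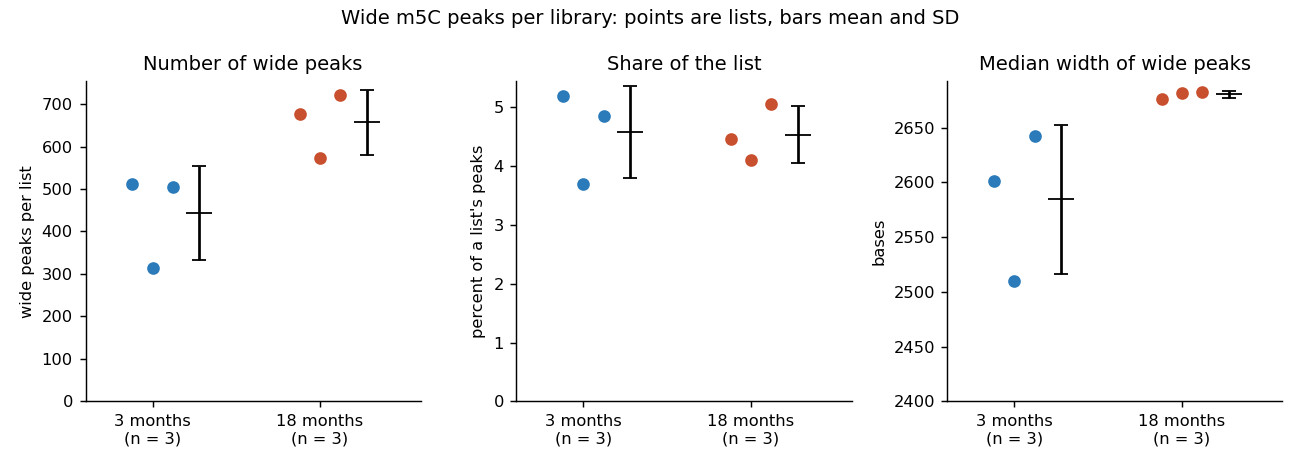
Points are the 6 peak lists, 3 for each age (x axis), and bars show the mean and SD. The panels plot the number of wide peaks, their percent of the list, and their median width in bases (axis from 2400). The 3 aged lists lie above the 3 young ones in the number (573 to 722 against 315 to 512) and in the median width, and among them in the share.

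Although few, wide peaks held a large part of the sequence under peaks. They covered 27.8%, 21.1% and 26.3% of all bases under peaks in the young lists and 25.9%, 24.1% and 27.5% in the aged lists. The ages overlapped on this measure (mean difference 0.804 percentage points, exact permutation p = 0.9). At equal list length the means were 26.1% ± 4.39 in young and 31.4% ± 2.13 in aged lists, a difference of 5.28 points (n = 3 each, exact permutation p = 0.1). With the full lists but without young replicate 2 the difference turned to -1.18 percentage points (exact permutation p = 0.4). The median width of wide peaks was 2601, 2510 and 2642.5 bases in young and 2676.5, 2682 and 2683 bases in aged lists. The aged lists were close together and above the young ones (2680.5 ± 3.5 against 2584.5 ± 67.8 bases, SD, n = 3 each), which is a description, since the members were chosen by width. The difference of 96 bases depended on the limit and on the peaks kept: it was 27.5 bases at a minimum width of 1500 bases, 93.8 at 3000 bases and 12 among the higher-scoring peaks of each list. Of the 3302 wide peaks, 1394 were under 2500 bases, 181 were from 5000 to under 10000, and 4 reached 10000.

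The limit of 2000 bases falls on a continuous scale of widths. Just inside it were a peak of 2000 bases in Vps36, a gene of endosomal sorting, and peaks of 2001 bases in Maneal, Gpr61 and Plch2. Peaks of 1998 bases in Rorb, a nuclear receptor, Rnf11 and Cavin1 fell just outside. In all, 2817 peaks were at least 1500 but under 2000 bases long.

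Wide peaks had higher scores than the other peaks of their list. The score is the authors' own value per peak, it was never below 50, and 2902 peaks had the same value of 3100. With the few above it, up to 3233, 3023 peaks were at 3100 or more, and this value is called saturated here. Median scores of wide peaks were 239, 208 and 213 in young and 312, 295 and 287 in aged lists. The other peaks of the same lists had 133, 116 and 119, and 140, 141 and 137. In each of the 6 libraries wide peaks were therefore higher, by a mean log2 ratio of 0.973 (two-sided exact sign-flip permutation test over 6 libraries, p = 0.031, the smallest it allows). The log2 ratio was 0.848, 0.850 and 0.845 in young and 1.16, 1.07 and 1.07 in aged libraries, a difference of 0.251 between the means (exact permutation p = 0.1). That order of the ages turned with lists of equal length, where the mean ratio was 0.824 in young and 0.753 in aged libraries. Between 8.33% and 11.98% of the wide peaks of a list reached the saturated score, against 3.05% to 4.31% of the others.

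Recurrence separated the wide regions into common and occasional ones. Of the 1268 regions, 485 had a wide peak in 1 list, 257 in 2, 190 in 3, 110 in 4, 97 in 5 and 129 in all 6. The share in all lists was 10.2%. For comparison, 17.6% of all 24501 consensus regions with a peak of any width had one in all lists, and 7.1% of the 3393 regions of peaks of at least 1000 but under 2000 bases had such a peak in all lists. Most of the occasional regions were not empty elsewhere: of the 485, 293 (60.4%) had a peak of some width in at least 1 other list, and 192 did not. With peaks of any width counted, 373 of the 1268 regions (29.4%) were occupied in all 6 lists.

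Young replicate 2 lacked most of the regions that fell short by 1 list. Of the 97 regions wide in 5 lists, 51 were missing there, of which 36 had no peak of any width in that list. The numbers missing were 12 and 13 in the other young lists and 6 to 8 in the aged lists. Score and recurrence went together. Within a list, wide peaks in regions shared by all 6 lists had median scores of 1217, 617 and 1329 in young and 2931, 2136 and 2263 in aged lists, whereas those wide in that list alone had 103, 81.0 and 97.5, and 104, 84.8 and 107.

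Overlapping wide peaks often ended at the same base. Among the 783 regions wide in 2 or more lists, 60.8% had the same upstream edge in every wide peak, 33.1% the same downstream edge and 26.3% both. There were 108 regions with exactly 1 peak in each list, all wide. In 49 of these both edges and so the width were identical in all 6 lists, in 31 the mean width was larger in aged and in 28 it was larger in young lists.

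The genes with fixed edges included several with very long single exons, although the table of gene spans used here holds no exons and the match was not tested. Map1a, a microtubule-associated protein of dendrites, had a peak of 8104 bases in each list (chr2:121299269-121307372). Its score was 3100 in 5 lists and 1381 in young replicate 2. Map1b, its relative in growing axons, had a peak of 6490 bases and a score of 3100 in each list (chr13:99429212-99435701). Ankrd11, a regulator of chromatin whose loss causes KBG syndrome, had 6518 bases in each list, also with a score of 3100. For these 3 genes the lists at 3 and 18 months thus had the same position. Scores of 3100, in all lists for Map1b and Ankrd11 and in 5 for Map1a, leave no room to compare heights.

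Smaller regions of the same kind lay in Cplx2, which clamps and promotes vesicle fusion (4406 bases), Elavl3, a neuronal RNA-binding protein (3850 bases), Nlgn2, an adhesion protein of inhibitory synapses (2958 bases), and Neurod2, a transcription factor of excitatory neurons (2927 bases). The score was 3100 in each list for Cplx2 and Elavl3, but varied for Neurod2 and Nlgn2. In Neurod2 scores were 1030, 800 and 811 in young and 2931, 1917 and 1795 in aged lists. In Nlgn2 scores were 260, 86.2 and 362, and 820, 224 and 1003, so that 1 aged list lay below 2 young ones. Scores belong to each list's own scale, and these values were not tested.

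Other regions wide in all lists changed their extent from list to list. Values are the widest single peak, and a list with a narrower one may hold a second peak beside it: the 2 Spen peaks of young replicate 1 covered 99.6% of that region, and the 2 Son peaks of aged replicate 2 covered 98.6% of theirs. Zbtb20, a zinc finger repressor that specifies hippocampal CA1 neurons, had the region with the largest median width (chr16:43618323-43631730, at the end of a span of 758.7 kb). Its widest peak was 10708, 4497 and 6734 bases in young and 10990, 11419 and 8811 bases in aged lists. One young list thus lay among the aged ones. Kcna2, a potassium channel of axons, had 8547, 2105 and 7644, and 2954, 5347 and 5716 bases, with a score of 3100 in each list and up to 3 peaks within the region. The ages overlapped fully. Spen, a repressor that binds Xist RNA, had 5683, 8020 and 3153, and 8020, 8020 and 5742 bases. Rab3c, a vesicle GTPase, had 7803, 5244 and 5145, and 3784, 7666 and 7610 bases. Neither separated the ages.

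The others among the 12 regions of largest median width lay in Lsamp, an adhesion protein of limbic neurons (4438 to 7535 bases over the lists), Prkcb, a protein kinase C (6546 to 6738), Son, a splicing protein (3501 to 5970), Bod1l, which protects replication forks (5703 to 5953), Prickle2, a planar polarity protein (2486 to 5929), and Hrnr, a repeat-rich protein of the epidermis (8174 to 8643). The Son region also overlapped the span of a predicted gene. Hrnr is known from skin, yet its region had a score of 3100 in each list. Its repeats resemble each other, and the sources used here do not give how reads with several matches were placed.

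Of the 6 regions with the widest single peaks, those of Zbtb20, Kcna2 and Hrnr, described above, were wide in all lists, that of Purb in 2 and those of Grin2b and Adcy1 in 1. The widest peak of all, 14387 bases, lay in Grin2b, a subunit of NMDA receptors (chr6:135713232-135727618). It was in aged replicate 1 alone, with a score of 105. Adcy1, a calcium-stimulated adenylyl cyclase, had a peak of 9094 bases in aged replicate 3 alone, with a score of 70.5. In Purb, a single-stranded nucleic acid binding protein, aged replicate 3 had 8478 bases at a score of 76.2 and aged replicate 1 had 3429 bases at 971. The longest peaks of Grin2b, Adcy1 and Purb thus had scores near the bottom of the scale.

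**Figure D2:**
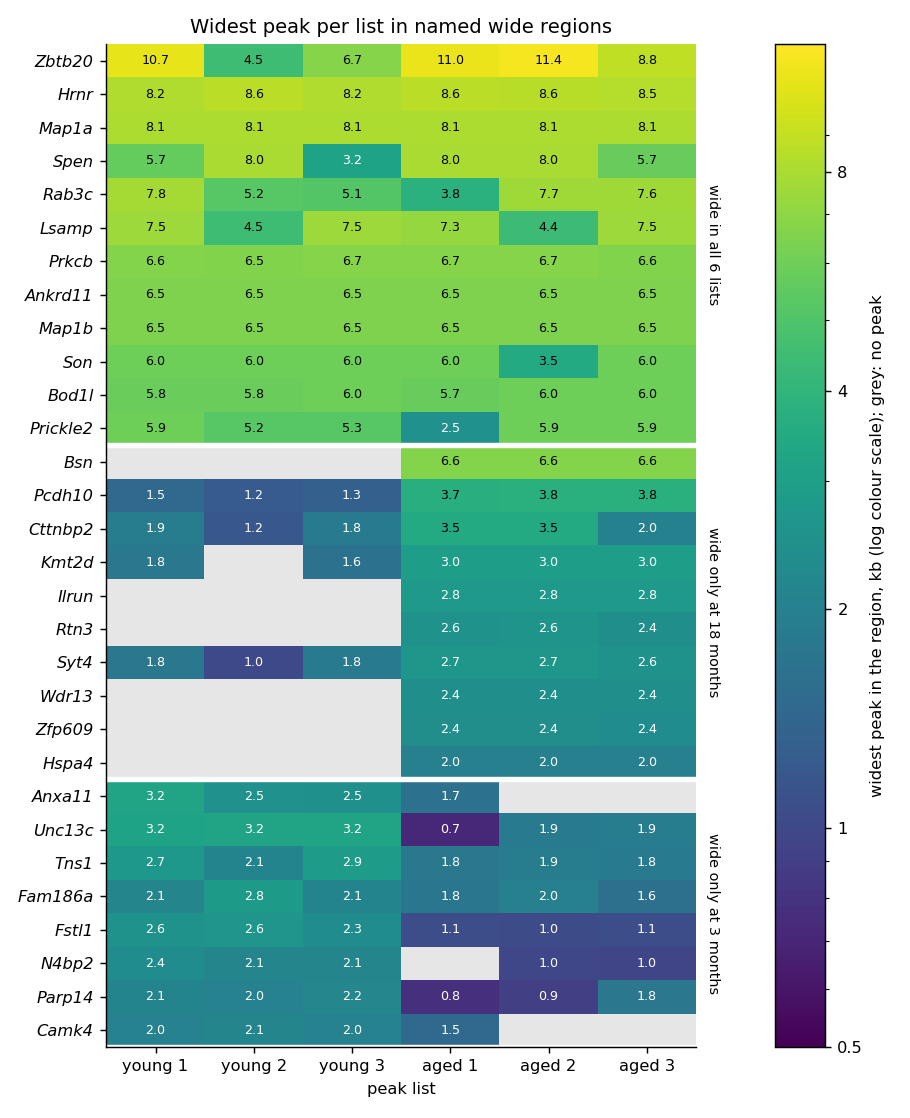
Rows are named wide regions by host gene, columns are the 6 peak lists, and colour and number give the widest peak in the region in kb on a log colour scale, with grey for no peak. In the top block Map1a, Ankrd11 and Map1b keep one width in all lists while Zbtb20 runs from 4497 to 11419 bases. In the middle block 6 of 10 rows are grey in all young lists, and in the bottom block most aged cells hold a narrower peak.

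A few regions were wide at 1 age only. Of the 1268, 39 (3.08%) were wide in the 3 aged lists and in no young one, and 11 (0.868%) were wide in the 3 young lists and in no aged one. Counting peaks of any width, 51 (4.02%) and 6 (0.473%) of the wide regions were occupied at 1 age only. Among all consensus regions with any peak the corresponding shares were 5.13% and 0.637%, and among regions of peaks of at least 1000 but under 2000 bases 3.15% and 0.737%, so wide regions did not stand out in this respect. The aged lists were longer, which bears on these counts. At equal list length 19 regions were wide only at 18 months and 12 only at 3 months. In all, 477 regions were wide in at least 1 aged and no young list, 210 in at least 1 young and no aged list, and 581 at both ages. Most regions that were wide at 1 age did not recur within it: 314 of the 477 and 171 of the 210 were wide in 1 list.

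The regions wide only at 18 months were mostly without any peak in young lists. Of the 39, 26 had no peak of any width in the 3 young lists, and 6 had a narrower one in all 3. Bsn, the presynaptic scaffold protein Bassoon, had the widest of the 10 that the score ranked highest (chr9:108109885-108116526). No young list had a peak there and each aged list had the same peak of 6642 bases, with scores of 378, 697 and 887. Elsewhere in the Bsn span the 3 young lists together had 1 peak of 341 bases. Ilrun, a regulator of interferon responses, had 2764 bases in each aged list, and Wdr13, an X-linked WD-repeat protein, had 2429. Both had no young peak. Rtn3, a reticulon of the endoplasmic reticulum, had aged peaks of 2557, 2585 and 2432 bases, and Zfp609, a transcription regulator, 2405, 2405 and 2359 bases. These were also absent from the young lists. Hspa4, a chaperone cofactor, had 2002 bases in each aged list, barely above the limit, and no young peak.

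In the other 4 of the 10, a narrower young peak was in place. Pcdh10, a protocadherin of neurons, had 1476, 1241 and 1323 bases in young and 3676, 3763 and 3763 bases in aged lists (chr3:45378398-45382160). Its aged peaks ran from the RefSeq start of the gene. Cttnbp2, a cortactin-binding protein of dendritic spines, had 1931, 1181 and 1843 bases, and 3507, 3507 and 2015 bases, with a score of 3100 in each list. Each young list had 2 peaks in that region, as did aged replicate 3, whereas aged replicates 1 and 2 had 1. Kmt2d, a histone H3K4 methyltransferase, had 1775 and 1632 bases in young replicates 1 and 3, no peak in young replicate 2, and 2952 bases in each aged list. In young replicate 3, however, 2 peaks together covered 99.9% of the region. Syt4, a synaptotagmin of dense-core vesicles, had 1792, 1009 and 1829, and 2683, 2683 and 2574 bases.

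The regions wide only at 3 months were seldom empty in aged lists. Of the 11, 7 had a narrower peak in all 3 aged lists and 1 had no aged peak. Unc13c, a Munc13 priming factor of synaptic vesicles, had 3162, 3213 and 3213 bases in young and 720, 1867 and 1903 bases in aged lists (chr9:73930597-73933809). Fstl1, a secreted glycoprotein, had 2566, 2635 and 2336, and 1060, 1032 and 1075 bases. The Unc13c region held 2 peaks in aged replicate 2, of 1190 and 1867 bases, which together covered 95.1% of it, whereas the peak of aged replicate 1 covered 22.4%. In Fstl1 the 3 lists of an age were closer to each other than to those of the other age. Fam186a had 2126, 2816 and 2094 bases in young lists and 1751, 1995 and 1617 in aged ones, so that the aged peak of replicate 2 fell just short of the limit. Tns1, a focal adhesion protein, had 2735, 2099 and 2892, and 1783, 1911 and 1841 bases. Parp14, a mono-ADP-ribosyltransferase, had 2101, 2040 and 2186, and 772, 913 and 1768 bases. The widest peak was narrower in all aged lists in both genes, although aged replicates 2 and 3 had 2 peaks in the Tns1 region. Anxa11, an annexin of RNA granule transport, and Camk4, a calcium-dependent kinase, had aged peaks in replicate 1 alone, of 1658 and 1478 bases. N4bp2 had aged peaks of 978 and 971 bases in replicates 2 and 3. The other 3 regions lay over pseudogenes, and none of the 39 on the aged side lacked a protein-coding host.

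**Figure D3:**
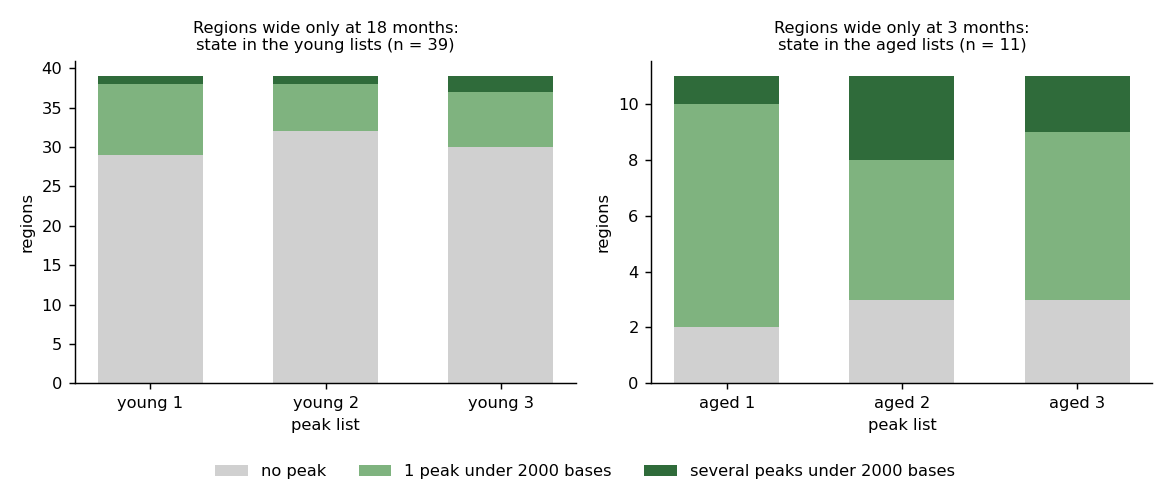
Bars divide the 39 regions wide only at 18 months by their state in each young list (left) and the 11 wide only at 3 months by their state in each aged list (right); the y axis counts regions. Between 29 and 32 of the 39 have no peak in a young list, against 2 or 3 of the 11 without a peak in an aged list.

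Wide peaks lay toward the ends of genes. In each list between 65.9% and 73.2% of the wide peaks with a host of known strand had their midpoint in the last 20% of the host span, against 62.6% to 67.1% of peaks of at least 1000 but under 2000 bases and 30.5% to 32.1% of peaks under 1000 bases. The last base of the host span was overlapped by 24.2%, 19.5% and 24.2% of wide peaks in young and 20.9%, 23.5% and 27.9% in aged lists. In the class of 1000 to under 2000 bases it was 17.2%, 15.3% and 16.3%, and 14.2%, 15.3% and 15.8%. Wide peaks were higher in 6 of 6 libraries, by a mean of 7.66 percentage points. A longer peak reaches a fixed base more easily, so the width rule favours this direction, and the difference is given as a description with no test.

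The same comparison at gene starts gave small values. Wide peaks overlapped the first base in 2.69%, 3.07% and 2.08% of cases in young and 3.20%, 3.44% and 3.15% in aged lists, against 2.33%, 2.60% and 1.99%, and 1.70%, 2.48% and 2.21% for the narrower class. The mean difference was 0.721 percentage points, again in the direction that the width rule favours. It was 0.425 points at a minimum width of 3000 bases and 0.565 among the higher-scoring peaks of each list. In 79 regions the joined wide peaks covered at least 50% of a host span. Pnmal2, Tspyl1 and Tspyl4, whose genes are short, were covered wholly. So was Amd2, a polyamine synthesis enzyme.

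**Figure D4:**
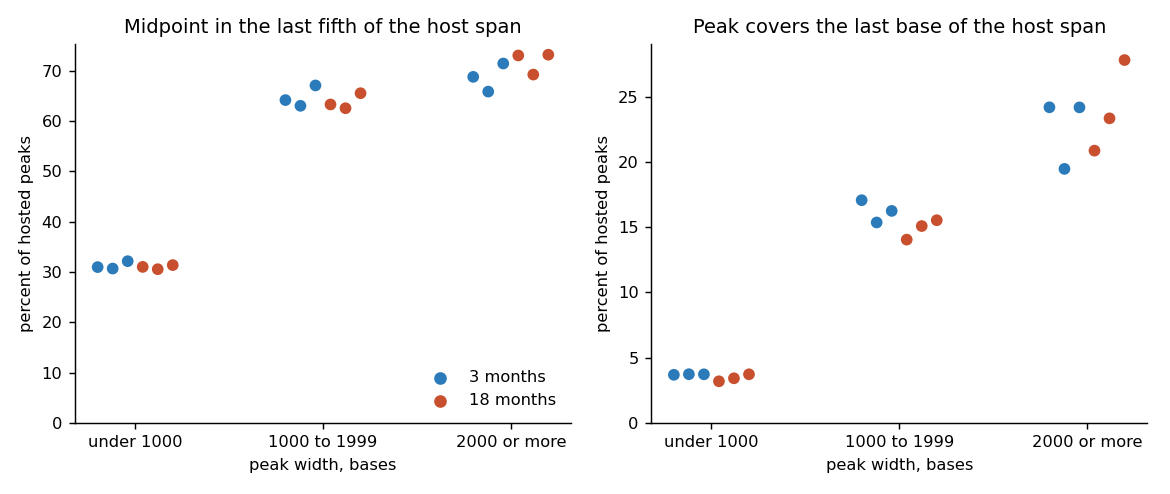
Each point is 1 of the 6 lists, grouped by peak width in bases (x axis), with young lists in blue and aged lists in red. The y axes give the percent of hosted peaks whose midpoint lies in the last 20% of the host span (left) and that cover its last base (right). In the left panel the wide peaks sit between 65.9% and 73.2%, and peaks under 1000 bases between 30.5% and 32.1%.

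The wide regions had 1205 protein-coding hosts, which is 12.6% of the 9527 genes with a peak of any width. Their number per list was 505, 316 and 503 in young and 676, 564 and 698 in aged lists (646 ± 71.9 against 441 ± 109, SD, n = 3 each, exact permutation p = 0.1). At equal list length the difference of 205 was 88.7 (exact permutation p = 0.3). Host genes had a median span of 51.4 kb, against 28.8 kb for other genes with a peak. There were 89 hosts with more than 1 wide region, and 29 regions had more than 1 host. Among these were the 11 regions of the gamma protocadherin cluster on chromosome 18. The gene spans there overlap and had no known strand, so the same few peaks count for many hosts. For 294 regions the strand of the host was taken from its peaks or was unknown.

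**Figure D5:**
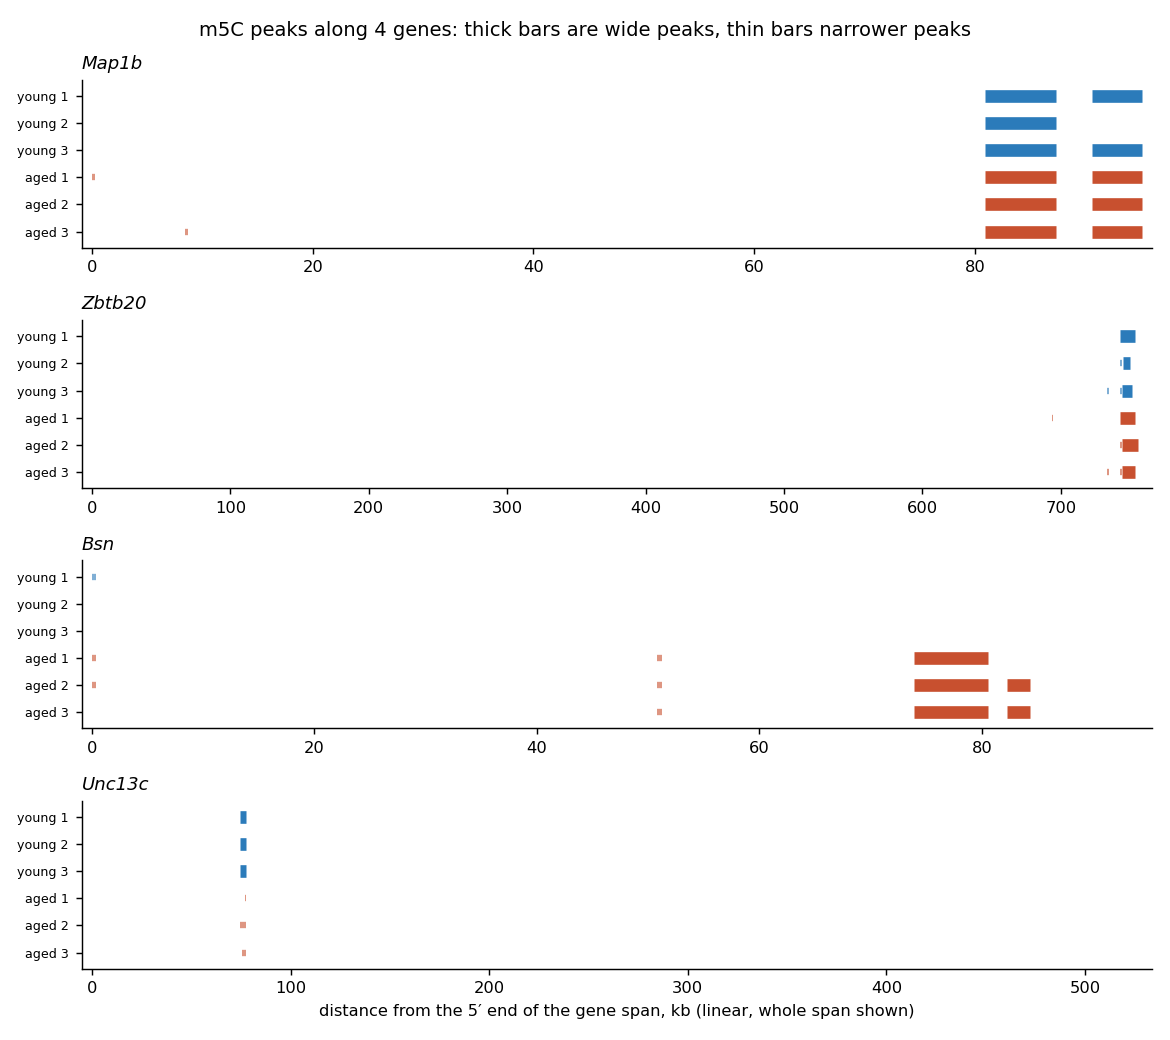
Bars mark peaks along 4 genes in the 6 lists (rows, young in blue, aged in red) by distance from the 5′ end of the gene span in kb, with thick bars for wide peaks. Map1b keeps its main wide peak in all lists and lacks the terminal one in young replicate 2. Bsn has its 6642-base peak in the 3 aged lists only, and Unc13c has wide peaks in the 3 young lists only.

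The gene lists below were written with results of these data known, so a high share in a list does not stand as independent evidence. Each is read beside the 12.6% of all genes with a peak that hosted a wide one. Among cytoskeletal linkers and microtubule-associated proteins, 16 of 31 genes with a peak hosted a wide one. Those wide in all 6 lists included Map2, which marks dendrites, Mapt, which encodes tau, the neurofilament subunit Nefm, the spectraplakin Dst and the kinesin Kif1b. Plec, the linker protein plectin, had 7190 and 7412 bases in young replicates 1 and 3 and 7261, 7412 and 7398 bases in aged lists. In young replicate 2 its wide peak, of 3381 bases, lay just upstream instead. The second wide region of Map1b, 4498 bases at the end of the gene, was likewise in all lists but young replicate 2.

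Chromatin and transcription genes were among the hosts, as were members of most of the other lists. Of the 43 chromatin remodelers and histone modifiers with a peak, 19 had a wide one. Kmt2a, an H3K4 methyltransferase, had a region of 2651 bases in each list, and Bptf, a subunit of the NURF remodeler, one of 2308 bases in each list. Arid1a, a BAF complex subunit, ranged from 2730 to 2873 bases. Zinc finger and homeobox factors had wide peaks in 17 of 25, mostly in some lists only: Bcl11a, a repressor of neuronal fate genes, was wide in 5 lists and Tshz1 in 5, but Hivep2 in 2. Of genes whose coding sequence lies in 1 exon, 17 of 29 hosted one. They included Gja1, the astrocyte gap junction protein connexin 43, with 2886 bases in all lists but young replicate 2, where no peak was listed.

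Synaptic and channel genes also held wide peaks. In the presynaptic list 8 of 24 genes with a peak did. Pclo, the scaffold Piccolo and relative of Bassoon, had the same 2182 bases in each list, unlike Bsn. A second Pclo region was wide in aged replicates 2 and 3 only. Rims1, an active zone organiser, was wide in 4 lists. In the postsynaptic list 11 of 23 genes did. Dlg3, a scaffold of the PSD-95 family, had 2192 bases in 4 lists and no peak in young replicates 2 and 3.

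Glutamate and GABA receptors had wide peaks in 10 of 30. Grik3, a kainate receptor subunit, was the member wide in all lists (3208 to 4478 bases). Gria1, an AMPA receptor subunit, had 2802 bases in young replicate 2 and in the 3 aged lists, and no peak in young replicates 1 and 3. Its scores were 63.1 in the young list and 3015, 1695 and 1896 in the aged ones. The young peak thus stood near the lowest listed score. Voltage-gated channels had 13 of 31. Scn2a, a sodium channel of excitatory neurons, had 3814 bases in 5 lists and 2998 in young replicate 2. Cacna1e, an R-type calcium channel, had 3402 to 6417 bases in 5 lists and no peak in young replicate 2.

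Signalling and RNA-binding genes followed the same range. Kinases, phosphatases and mTOR signalling had wide peaks in 13 of 32. Ntrk2, the receptor for BDNF, had 3893, 3651 and 5803 bases in young lists and 3757 in each aged one, with a second peak in aged replicates 1 and 3. Ppp1r9a, the spine protein neurabin, had 2376, 2434 and 4871, and 4896, 4957 and 4957 bases, with 2 peaks in young replicates 1 and 2. RNA-binding and translational control genes had 15 of 35. Tnrc6c, a scaffold of microRNA silencing, had 2601 bases in each list. Cadherins and other large adhesion proteins had 11 of 26, among them Pcdhgc3, counted through a region that it shares with overlapping spans of its cluster. Pcdh9 had 3192 bases in all lists but young replicate 2, and Fat1, a giant cadherin, had 3274 and 3274 bases in young replicates 1 and 3, no peak in young replicate 2, and 1202, 2033 and 3274 bases in aged lists.

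Giant ubiquitin ligases and deubiquitinases had wide peaks in 7.41% of the members with a peak, beside 12.6% of all genes. This share rests on 2 genes, and its distance from 12.6% was not tested. Peaks of any width were in 27 of 27 of them, and in all 6 lists in 21, and a wide peak in 2. Usp7, a deubiquitinase that stabilises p53 regulators, had 2165 bases in aged replicate 3 and 1271 to 1510 bases elsewhere. Cul9 was wide in aged replicate 2 alone, with 2753 bases. Of 10 writers, erasers and readers of m5C with a peak, the 3 with a wide one were the TET dioxygenases. Tet3 had 2060 bases in young replicate 1 and 2158 in aged replicates 1 and 3, with scores of 92.7, 59.6 and 198. Tet1 was wide in young replicate 1 only, and the regions of Tet2 in 1 aged list each. Immediate early genes had 3 of 11. Jun, an AP-1 subunit, had 2449 and 1795 bases in young replicates 1 and 2, no peak in young replicate 3, and 3116, 2536 and 2629 bases in aged lists. Arc was wide in aged replicate 2 alone, with 2006 bases.

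Markers of cell types describe which transcripts were within reach of wide peaks. Markers of hippocampal principal neurons had peaks in 14 of 15 and wide peaks in 6, among them Neurod2, Zbtb20 and Dsp, a desmosomal protein of dentate granule cells. Dsp had 2295 bases in each list in one region and 2985 to 3882 bases in the next. Markers of inhibitory neurons had peaks in 11 of 15 and no wide peak, which is 0 of 11. Of these 11, however, 1 had a peak in all 6 lists, against 10 of the 14 principal neuron markers. The distance of 0 of 11 from the 12.6% of all genes was not tested. Astrocyte markers had 4 of 13, with Sox9 at 2162 to 2891 bases in each list. Oligodendrocyte markers had 3 of 11, of which Mobp, a myelin protein, had 2936 to 2941 bases in all lists but young replicate 2, where no peak was listed. Microglia had 2 of 7 and endothelial and mural cells 1 of 12, the pericyte gene Rgs5 (2337 to 2984 bases). Markers of choroid plexus and ependyma had a peak in 2 of 10 and no wide one. Peaks do not measure expression, so these counts give no share of cell types.

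There were 43 wide regions without a protein-coding host on their strand, 31 of them over a pseudogene or non-coding span. Kcnq1ot1, the imprinted non-coding RNA that silences its neighbours, held 6 of them. One (chr7:143234802-143239485) was wide in all lists, with 4333, 4022 and 4155 bases in young and 3371, 3423 and 3688 in aged lists. All aged values were below all young ones there, but aged replicate 1 had 2 peaks in the region. The next (chr7:143227167-143231629) had 2564, 1230 and 3595, and 3454, 2281 and 2692 bases, and its ages overlapped. The region with Mir568, downstream of the Zbtb20 span (chr16:43636614-43642602), had 5989 bases in young replicate 1 and 4710 and 4632 in aged replicates 1 and 2.

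Repeated sequence held some of the others. On chromosome 2, 7 wide regions of 2493 bases each followed one another at a constant spacing of 5810 bases over the pseudogenes Gm13698 to Gm13691 (chr2:83955693-83993045). Each had a peak of some width in all 6 lists, but which copies were wide differed between lists, and Gm13691, the last of them, was wide only at 3 months. On chromosome 18, 11 wide regions with protein-coding hosts lay in the cluster of gamma protocadherins, neuronal adhesion proteins with related variable exons. None was wide in more than 3 lists. How alike the copies or exons are was not examined, and the placing of reads with several matches is not given. Which of them such a peak belongs to is therefore uncertain.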

How the data were processed

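RNA from hippocampus was enriched with an m5C antibody and sequenced beside its input, per the labels' protocols. Tools named in the submitters' processing notes are HISAT2 2.0.4 and cutadapt 1.9.3, with mm10 as the build. The authors deposited 1 peak list per IP library with its input, with start, end, strand and a score per peak. The sources used here do not give the caller's settings or the meaning of the score. Depth is unknown, and a peak's edges follow the authors' calling.

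Widths were end minus start. Peaks were joined and matched at an overlap of at least 1 base on the same strand. Hosts were RefSeq protein-coding spans on GRCm38.p6 (21883 spans, strand from promoter windows for 17491 and from peaks for 1829). Of the unambiguous peaks, 99.7% lay on the strand of the promoter windows. The comparison class held peaks of at least 1000 but under 2000 bases. Analyses used Python 3.11.15 with numpy 2.4.6 and pandas 2.3.3, with two-sided exact permutation tests over libraries, 3 against 3, or sign flips over 6 libraries. Planned tests of overlap with gene starts and ends, and of median width, depend on the width that chose the members, so their values are given as descriptions. Region joining and tests were checked on simulated data. Other settings were minimum widths of 1500 and 3000 bases, higher-scoring peaks, lists of equal length, peaks within 100 bases joined, hosts on either strand, peaks of any width, joining at 50% overlap, replicate blocks, and each library left out.

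Members and gene lists were chosen with earlier results of these data known. Named were the hosts, without predicted genes, of the 12 regions wide in all lists with the largest median width, up to 10 regions wide at 1 age only by mean score, the 6 widest peaks, up to 3 members per list by recurrence, peaks at the limit, hosts with the most regions, and the 3 widest regions without a host. Some genes under this rule are left unreported. Map2, Mapt, Nefm, Dst, Kif1b, Tspyl1, Amd2, Hivep2 and Rtl1, the pseudogenes, and the genes of printed promoters were named for their recurrence or position after their values were seen.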

Additional observations from a re-analysis of the deposited data

How the results depend on the processing

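The larger number of wide peaks, hosts and the larger median width in aged lists kept their direction in every setting, with differences of 85 to 377 peaks, 83 to 342 hosts and 12 to 106 bases, or 149 to 255 peaks, 142 to 246 hosts and 58.75 to 125 bases with 1 library left out. At equal list length, however, peaks (91) and hosts (88.7) had an exact permutation p of 0.3. The difference in the share of wide peaks turned to 0.109 percentage points at a minimum width of 3000 bases, 0.298 among peaks at or above the list's median score and 1.06 at equal list length. With 1 library left out it was -0.483 to 0.263 points, and turned without young replicate 1, young replicate 3 or aged replicate 2. The difference in the share of covered bases was then -1.18 to 2.16 points, and turned without young replicate 2 or aged replicate 3. The cause was not tested. The score ratio (0.936 to 0.999) had an exact permutation p of 0.0625 with 5 libraries, the smallest that 5 allow. The start difference was 0.565 to 0.846 points and the end difference 6.76 to 8.37 points with 1 library left out. The start difference was 0.829 points at 1500 bases, 0.425 at 3000 bases and 0.565 among higher-scoring peaks.

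Regions wide only at 18 months, only at 3 months and in all 6 lists numbered 67, 17 and 261 at 1500 bases and 10, 2 and 43 at 3000 bases, which follows from the limit. Among higher-scoring peaks, 3 were wide only at 3 months, and at equal list length 19 only at 18 months. With peaks of any width counted, 6 were present only at 3 months and 373 in all lists. Leaving out 1 library relaxes the rule and gave 43 to 101 regions only at 18 months, 13 to 24 only at 3 months and 135 to 180 in all lists. The first count exceeded 1.5 times its value of 39 without young replicate 1 (65) or 3 (69) or aged replicate 1 (73), 2 (101) or 3 (67), and the second its value of 11 without young replicate 1 (18), 2 (24) or 3 (19).

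Whether replicate numbers pair the libraries is not settled, since all correlations of deviations were small. Same-numbered libraries had 0.00759, 0.0569 and 0.0742, and the values of replicates 2 and 3 were the highest of all pairs. Pairs of unlike number had -0.0779 to 0.0251. With the replicate block the difference in wide peaks stayed 213 (exact permutation p = 0.25, the smallest that 3 pairs allow), and no call changed. The unknown depth limits every count of missing peaks.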
